A study of Mus musculus with 16 samples.

Results

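The constitutive proteasome genes were followed in bulk RNA sequencing of 16 mouse libraries made from cells of YUMM1.7 tumours. They were taken by symbol, as the protein-coding genes named Psma, Psmb, Psmc or Psmd followed by a number, leaving out the interferon-inducible subunits Psmb8, Psmb9 and Psmb10 and the thymic subunit Psmb11. This gave 35 genes of the 32697 in the count table. The rule reads symbols only, but the set was proposed with earlier results of these data known. All 35 were among the 16040 genes that passed the filter on low counts.

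The 26S proteasome is the main ATP-dependent protease of the cytosol and nucleus, and it degrades proteins that carry ubiquitin chains. Its 20S core is a barrel of alpha and beta rings in which the beta subunits encoded by Psmb5, Psmb6 and Psmb7 cut the substrate. Its 19S cap has a base, with the ring of ATPases that unfold the substrate, and a lid, with the enzyme PSMD14 that removes the ubiquitin chain. In dendritic cells the proteasome also makes peptides for MHC class I, and interferon-inducible subunits can replace the 3 catalytic ones.

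YUMM1.7 is a mouse melanoma line, and the tumours were taken at 200 to 350 mm3 after engraftment with no other treatment stated. The series' design text calls the cells cDC1s, type 1 conventional dendritic cells, obtained by sorting. The genotype labels gave 4 groups of 4 libraries: IKKbFF (Ikbkb floxed controls), IKKbdeltaXCR1 (Ikbkb-deleted), IRF1FF (Irf1 floxed controls) and IRF1deltaXCR1 (Irf1-deleted). Ikbkb encodes the kinase IKKβ of the NF-κB pathway and Irf1 an interferon-regulated transcription factor, and XCR1 is a chemokine receptor of cDC1s; the labels name the deletions after it and state no Cre line. The growth notes name only female mice with the Ikbkb genotypes, so the group of each Irf1 library rests on its genotype label, and no age is given. Libraries 1 to 8 were the Ikbkb groups and libraries 9 to 16 the Irf1 groups, called here the Ikbkb set and the Irf1 set. The sets differ in library number, in the floxed gene and in all that went with either, and these cannot be told apart. Nothing in the labels says that each library came from its own mouse, so the p-values measure the spread between libraries, which may be technical.

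Totals ranged from 16478671 to 27433818 counts, and the 34 genes other than Psma8 had 1159 to 25072 counts in each library. All 12 cDC1 markers were detected in each library, with Xcr1 between 12.1 and 318 CPM (counts scaled to each library's effective size). The 12 marker values summed to 773 to 8565 CPM, against 3758 to 17270 CPM for 12 macrophage and monocyte markers and 6221 to 30904 CPM for 10 fibroblast and endothelium markers. Abundant single genes weighed in these sums, such as Spp1 at 2264 to 7702 CPM and Col3a1 at 1465 to 13336 CPM. Pecam1, Cdh5 and Tek averaged only 20.9, 9.69 and 2.24 CPM. Such sums do not give shares of cells. The 8 melanoma markers summed to 2.55 to 16.9 CPM, most of it Mitf (1.43 to 16.4 CPM); Mlana, Tyr, Tyrp1 and Dct were each at 0 in 15 of the 16 libraries. Ikbkb itself averaged 64.8 ± 37.4 CPM among its floxed controls, against 37.4 ± 7.25 CPM after deletion (SD, n = 4 each). The groups overlapped, at 44.5 to 121 CPM and 28.5 to 46.3 CPM, and without Ikbkb control replicate 3, at 121 CPM, the other 3 controls averaged 46.1 CPM. Irf1 averaged 199 ± 61.9 CPM among its floxed controls, against 166 ± 90.5 CPM after deletion, where the library labelled Irf1-deleted replicate 1, at 299 CPM, lay above all 4 controls. The reads of both genes were counted over the whole gene, so that RNA outside a deleted part and RNA of other cells would add to them.

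Before the values, 5 upstream sequences are shown, for Psmb5 and Psmb6 because they are catalytic and hold an antioxidant response element core, for Psmd14 because it had among the largest differences between the sets, for Psmd2 because its difference was among the smallest, and for Psma5 because it had among the largest falls and none of the motifs searched. NFE2L1 (also called NRF1), which restores proteasome genes when proteasomes are inhibited, and NFE2L2 are known to bind antioxidant response elements. Each run is 200 bases on the strand of the gene, 5′ to 3′, from the RefSeq promoter windows of build GRCm38.p6, which start 250 bases before the gene, and was cut where needed so as to end before any annotated exon. The positions are chr14:54618023-54618222 on the minus strand for Psmb5, chr11:70525157-70525356 for Psmb6, chr2:61711494-61711693 for Psmd14, chr16:20651452-20651651 for Psmd2 and chr3:108256678-108256877 for Psma5, the last 4 on the plus strand. Capitals mark a motif match on either strand.
Psmb5: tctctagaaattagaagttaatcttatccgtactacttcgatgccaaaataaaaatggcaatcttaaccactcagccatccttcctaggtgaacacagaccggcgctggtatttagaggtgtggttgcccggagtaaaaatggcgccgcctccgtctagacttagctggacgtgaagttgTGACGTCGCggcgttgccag
Psmb6: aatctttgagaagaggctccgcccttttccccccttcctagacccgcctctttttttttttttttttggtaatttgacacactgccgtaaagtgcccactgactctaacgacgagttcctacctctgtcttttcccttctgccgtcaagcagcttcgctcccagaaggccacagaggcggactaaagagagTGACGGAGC
Psmd14: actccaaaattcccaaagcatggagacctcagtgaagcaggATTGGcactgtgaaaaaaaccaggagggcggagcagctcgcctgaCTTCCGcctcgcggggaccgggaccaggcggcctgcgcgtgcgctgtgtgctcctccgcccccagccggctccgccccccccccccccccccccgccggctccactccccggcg
Psmd2: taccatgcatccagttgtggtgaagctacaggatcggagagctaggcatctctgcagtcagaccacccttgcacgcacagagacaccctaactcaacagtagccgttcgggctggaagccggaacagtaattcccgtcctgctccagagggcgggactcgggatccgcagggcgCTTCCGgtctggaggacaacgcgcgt
Psma5: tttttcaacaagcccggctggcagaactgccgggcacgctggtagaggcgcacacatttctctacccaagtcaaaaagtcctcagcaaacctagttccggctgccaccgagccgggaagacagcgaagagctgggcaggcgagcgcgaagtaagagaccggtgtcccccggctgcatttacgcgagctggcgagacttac

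The capitals are the antioxidant response element core TGACNNNGC at positions -47 to -39 from the RefSeq start of Psmb5 and -9 to -1 from that of Psmb6. The GENCODE coordinates given below for both genes place their starts at other bases. In Psmd14 they are a CCAAT box, CCAAT, at -159 to -155 and an ETS core, CGGAAG, at -114 to -109, both on the opposite strand. In Psmd2 they are an ETS core at -26 to -21, also on the opposite strand. A window was found for 28 of the 35 genes, and Psma8, Psmb1, Psmb2, Psmb7, Psmc3, Psmd3 and Psmd7 were not matched. Over the part of each window before the gene, both strands searched and overlapping matches allowed, the antioxidant response element core was in 5 of 28 (Psmb5, Psmb6, Psmc6, Psmd12 and Psmd9, 17.9%), against 10.2% of 32851 windows of all genes. The CCAAT box was in 11 (39.3%), against 33.8%, and the ETS core in 15 (53.6%), against 13.6%. A match is a stretch of letters and not a measured binding site.

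Per kilobase of exon, the core genes Psma6, Psmb6 and Psmb2 were the highest of the 35. Psma6, an alpha ring subunit, was at 773 ± 170 CPM per kb in the Ikbkb set and 405 ± 107 CPM per kb in the Irf1 set (SD, n = 8 libraries each). Psmb6 was at 427 ± 89.2 and 248 ± 58.7 CPM per kb, and Psmb2, a non-catalytic subunit, at 405 ± 42.1 and 265 ± 47.2 CPM per kb. Psmb6 and Psmb2 differed by less than their SDs in both sets, so their order was not resolved. The lowest were Psmd11 of the lid, at 23.7 ± 2.04 and 22.1 ± 2.92 CPM per kb, the base assembly chaperone Psmd9, at 11.7 ± 1.32 and 9.97 ± 1.55 CPM per kb, and Psma8. Psmd5, at 26.4 ± 4.68 and 20.8 ± 5.69 CPM per kb, was below Psmd11 in the Irf1 set, so the order of Psmd5 and Psmd11 was not resolved. Leaving out Psma8, the highest level was 54.4 times the lowest, and 27.5 times when the length of the principal transcript was used in place of that of all exons. Of the 3 highest and 3 lowest genes, 4 of 6 were the same with that length. Psma7, ranked 4 by all exons, then ranked 1 at 833 ± 319 CPM per kb (SD over the 16 libraries). Psmb6 followed at 791 ± 276 CPM per kb, within that SD.

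Psma8, which encodes an alpha subunit of germ cell proteasomes, was at or near 0. It had 0 counts in 6 libraries, at most 54 in any and 199 in all 16. In CPM the Ikbkb controls had 0, 0, 0.158 and 1.62, the Ikbkb-deleted libraries 0.893, 0, 0 and 0.797, the Irf1 controls 0.645, 0, 0 and 2.55, and the Irf1-deleted libraries 0.275, 0.734, 0.839 and 0.969. These levels overlapped between all groups, and no fold change is given for this gene.

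The spread of the 35 genes over all libraries can be set beside that of other genes. The median coefficient of variation over the 16 libraries was 0.300 for the 35 genes, against 0.418 for the 14304 other genes within the same range of mean CPM. That range ran from 0.593 CPM, set by Psma8 alone, to 761 CPM. The 14304 genes were thus not matched in level to most of the 35, and the part of level in the contrast was not tested. The highest library stood at a median of 2.41 times the lowest, against 4.70 times for the 14304 other genes. The heat map of the values by library shows where this spread lay, gene by gene.

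**Figure D1:**
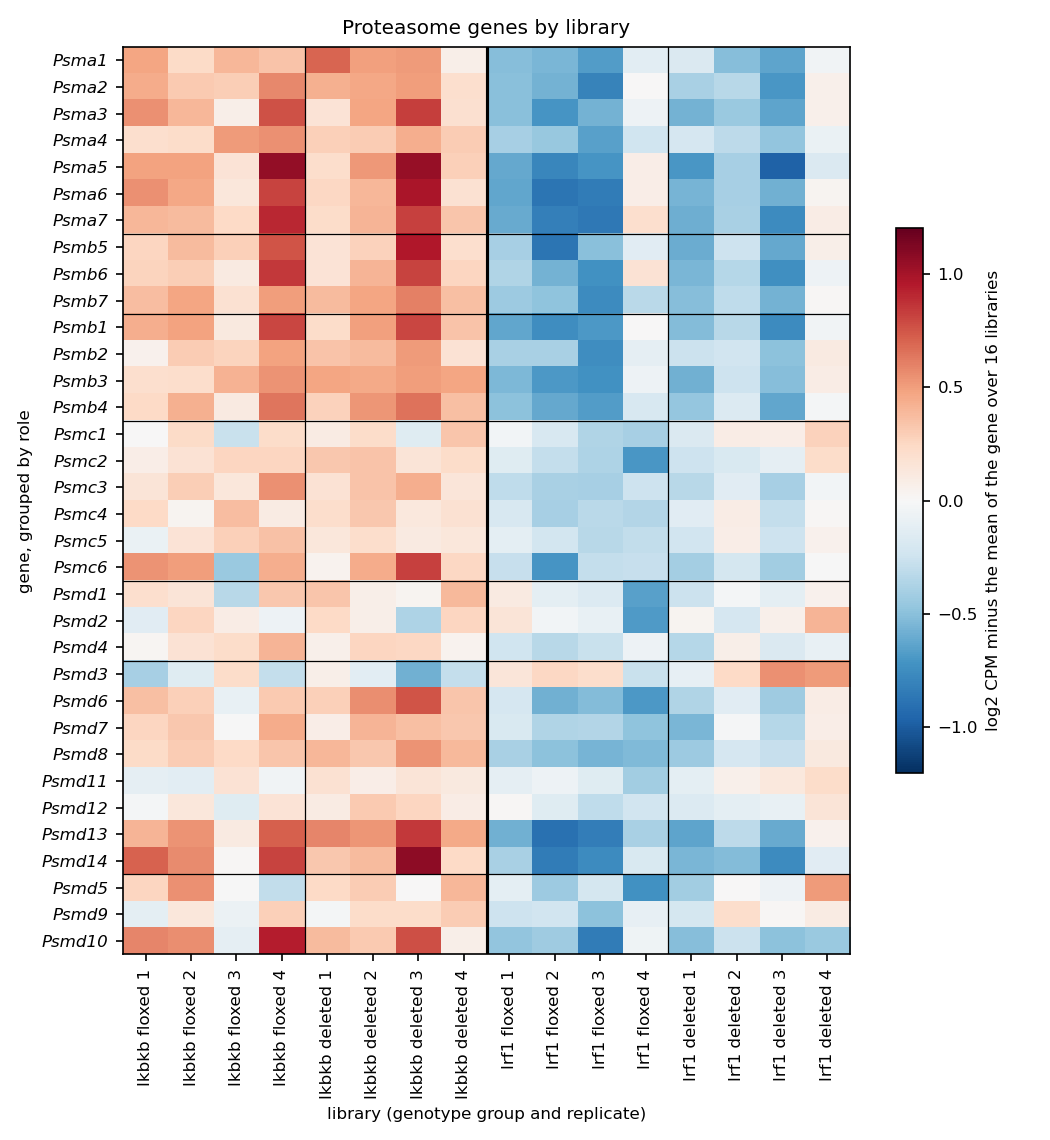
Heat map of the 34 proteasome genes other than Psma8, 1 per row and grouped by role, in the 16 libraries, 1 per column; colour is log2 CPM minus the mean of the gene over all libraries. The 14 core genes at the top were above their means in nearly all Ikbkb-set libraries and below them in most Irf1-set libraries. Psmd3 leaned the other way, with libraries of both sets above and below its mean.

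Between the sets, most proteasome genes fell: 26 of 35 were lower in the Irf1 set, 1 was higher and 8 did not pass the test. In all, 33 of 35 were fitted lower, where 49.4% of all genes were. Summed over the 35 genes, the Ikbkb controls had 13345 ± 1539 CPM and the Ikbkb-deleted libraries 13692 ± 1372 CPM, against 8186 ± 889 CPM for the Irf1 controls and 9132 ± 1429 CPM for the Irf1-deleted libraries (SD, n = 4 each). The lowest sum in the Ikbkb set was 11722 CPM and the highest in the Irf1 set 11127 CPM, so the sums of the sets did not overlap. The test was the quasi-likelihood test of edgeR, comparing the mean of both Irf1 groups with that of both Ikbkb groups, with Benjamini-Hochberg adjustment over all 16040 genes. By it 28% of all genes differed between the sets, 13% lower and 15% higher in the Irf1 set, and this is the background for each count below. The median log2 fold change was -0.68 over the 35 genes and 0.01 over all genes. In 16 of the 35 genes each library of the Irf1 set lay below each library of the Ikbkb set, as in 2.26% of all genes, and in 0 of the 35 did each lie above, as in 2.35% of all genes.

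Each gene of the 20S core fell. All 7 alpha ring genes, Psma1 to Psma7, which form the gate of the barrel, were lower, with a median log2 fold change of -0.86. Psma5 was among the 3 genes that fell by more than 1 on the log2 scale, with Psmd13 and Psmd14 of the lid, and their order was not resolved. It had 183, 182, 147 and 273 CPM in the controls of Ikbkb, 152, 187, 270.4 and 160.0 CPM in the Ikbkb-deleted libraries, 85.6, 76.1, 79.9 and 139 CPM in the Irf1 controls, and 80.9, 99.5, 67.0 and 116 CPM in the Irf1-deleted libraries. All 8 values of the Irf1 set were below all 8 of the Ikbkb set, and the log2 fold change was -1.06 (SE 0.18, adjusted p = 0.000878 by edgeR). The other 6 alpha genes ranged down from Psma4 at -0.70 to Psma6 at -0.93.

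The 3 catalytic genes fell by like amounts. Psmb5, for the chymotrypsin-like subunit (GRCm38 chr14:54614119-54618022), had 161, 175, 164 and 227 CPM in the controls of Ikbkb and 151, 163, 262 and 155 CPM in the Ikbkb-deleted libraries. Among the Irf1 libraries the controls had 102, 73.5, 94.9 and 122 CPM and the deleted ones 89.3, 114, 88.2 and 142 CPM. The sets did not overlap, and the log2 fold change was -0.82 (SE 0.16, adjusted p = 0.00161 by edgeR). Psmb6, for the caspase-like subunit (chr11:70525367-70527858), had 719.5, 732, 644 and 1075 CPM and 670.2, 793, 1045 and 716 CPM in the Ikbkb controls and deleted libraries. In the Irf1 controls and deleted libraries it had 464, 402, 359.8 and 673 CPM and 408, 469.5, 359 and 574 CPM. Here the sets overlapped through Irf1 control replicate 4, at 673 CPM, and the log2 fold change was -0.79 (SE 0.16, adjusted p = 0.00248 by edgeR). Psmb7, for the trypsin-like subunit (chr2:38588036-38644087), had 200.4, 215, 177 and 221 CPM and 203, 216, 236 and 200.3 CPM in the Ikbkb groups. In the Irf1 groups it had 115, 111, 92.4 and 125 CPM and 109, 126, 105 and 157 CPM. It was the steadiest of the 3 within a set, the sets did not overlap, and the log2 fold change was -0.83 (SE 0.11, adjusted p = 0.000212 by edgeR).

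All 4 non-catalytic beta genes, Psmb1 to Psmb4, which complete the beta rings, were also lower. Their log2 fold changes ran from -0.62 for Psmb2 to -0.92 for Psmb1, with a median of -0.80. Over the 14 core genes the median was -0.81 and 14 of 14 were called lower. With the offset for transcript length and GC content described below, 10 of 14 were called and the median was -0.35; Psma1, Psma4, Psmb2 and Psmb3 were then not called.

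The cap genes ranged more widely, from -1.05 to 0.38. Of the 17 base and lid genes 11 were lower, 1 was higher and 5 did not pass, with a median log2 fold change of -0.40. Of the 6 ATPase genes, whose products thread the substrate into the core, 5 were lower (Psmc2 to Psmc6), from -0.33 for Psmc5 to -0.67 for Psmc6. These calls were less firm: the control groups alone gave 4, the deleted groups alone 1, and the fit with the length and GC offset 1, Psmc3, with Psmc5 then at 0.10 (adjusted p = 0.429 by edgeR). Psmc1 was at -0.18 (SE 0.11, adjusted p = 0.243 by edgeR). Of the other base genes, the ubiquitin receptor Psmd4 was lower (-0.36, SE 0.09, adjusted p = 0.0103 by edgeR) but not with the offset (-0.01, adjusted p = 0.948 by edgeR), while the scaffold genes Psmd1 and Psmd2 did not pass. Psmd2 was at 413 ± 61.0 CPM in the Ikbkb set and 392 ± 80.1 CPM in the Irf1 set (SD, n = 8 each), a log2 fold change of -0.08 (SE 0.14, adjusted p = 0.717 by edgeR).

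The lid held the genes farthest apart. Psmd14, the deubiquitinase (chr2:61711694-61800376), had 692, 628, 426 and 743 CPM in the controls of Ikbkb and 530.0, 549, 890.2 and 498 CPM in the Ikbkb-deleted libraries. Among the Irf1 libraries the controls had 322, 236, 250.4 and 372 CPM and the deleted ones 289.9, 294, 251 and 385 CPM. The sets did not overlap, and the log2 fold change was -1.05 (SE 0.16, adjusted p = 0.000511 by edgeR). Psmd13, a structural lid subunit, had 483, 530.4, 393 and 597 CPM and 547, 525, 658 and 498 CPM in the Ikbkb groups. In the Irf1 groups it had 244, 196, 205 and 279 CPM and 235, 294, 239 and 378 CPM. Again no library of the Irf1 set reached the Ikbkb set, and the log2 fold change was -1.04 (SE 0.13, adjusted p = 0.000212 by edgeR). Psmd6, Psmd7 and Psmd8 were lower too, at -0.70, -0.54 and -0.68, and Psmd11 and Psmd12, at -0.10 and -0.22, did not pass.

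Psmd3, another structural lid subunit (chr11:98682554-98695979), was the gene that was higher. It had 152, 182, 234 and 165 CPM in the controls of Ikbkb, 211, 184, 135 and 165 CPM in the Ikbkb-deleted libraries, 222, 239, 232 and 167 CPM in the Irf1 controls, and 187, 238, 294 and 287 CPM in the Irf1-deleted libraries. The sets overlapped, and the log2 fold change was 0.38 (SE 0.14, adjusted p = 0.0479 by edgeR). This call was lost when any 1 of 12 of the 16 libraries was left out, and the call was not made within the control groups or the deleted groups alone: the value was 0.23 between the control groups (adjusted p = 0.470 by edgeR) and 0.53 between the deleted groups (adjusted p = 0.0963 by edgeR).

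Of the 3 chaperones that help to assemble the base, Psmd10 was lower. It had 125, 122, 77.0 and 159 CPM and 108, 104, 142 and 87.1 CPM in the Ikbkb groups, and 59.8, 61.7, 46.6 and 80.0 CPM and 58.4, 69.4, 59.3 and 60.9 CPM in the Irf1 groups. The sets met at a single pair of libraries, Ikbkb control replicate 3 and Irf1 control replicate 4, and the log2 fold change was -0.90 (SE 0.16, adjusted p = 0.000928 by edgeR). Psmd5 was at 191 ± 33.8 and 151 ± 41.1 CPM (-0.35, SE 0.15, adjusted p = 0.0961 by edgeR), and Psmd9 at -0.24 (adjusted p = 0.110 by edgeR).

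**Figure D2:**
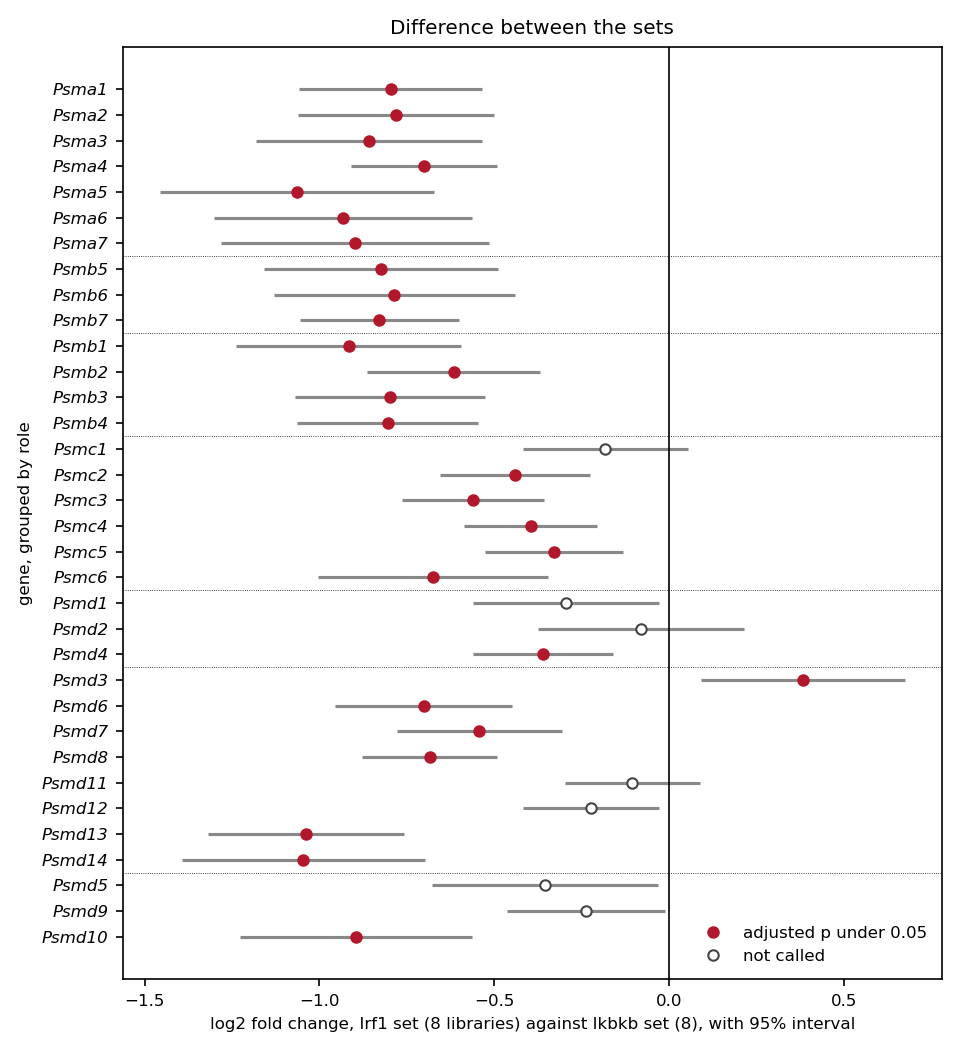
Log2 fold change of each of the 34 proteasome genes other than Psma8 between the Irf1 set and the Ikbkb set (8 libraries each), with its 95% interval from the edgeR fit; filled points passed at an adjusted p under 0.05. The 14 core genes lie between -1.06 and -0.62, Psmd13 and Psmd14 of the lid lie near -1, and Psmd3 alone lies above 0.

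The falls were also called within the control groups and within the deleted groups. Between the control groups alone 25 of the 35 genes were called, all lower, with a median log2 fold change of -0.71, where 5.84% of all genes were called lower. Between the deleted groups alone 19 were called, all lower, with a median of -0.60, where 3.54% of all genes were called lower. All 25 and all 19 were among the 27 called in the whole comparison. That comparison is the mean of both over the same libraries and fit, so the nesting is no further support.

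Core and cap can also be compared as sums per library. The 14 core genes summed to 6781 ± 972 CPM in the Ikbkb set and 3810 ± 814 CPM in the Irf1 set, and the 17 base and lid genes to 6345 ± 418 and 4564 ± 558 CPM (SD, n = 8 each). Core over cap was 1.07 ± 0.0949 in the Ikbkb set and 0.838 ± 0.179 in the Irf1 set, with overlap and no test. The highest 3 of the 16 ratios were in Irf1 control replicate 4 (1.25), Ikbkb-deleted replicate 3 (1.21) and Ikbkb control replicate 4 (1.21). The same 3 libraries had the highest shares of counts from mitochondrial genes, at 2.93%, 2.86% and 3.15%. The library with the lowest share, Ikbkb control replicate 3 at 0.699%, ranked 5 of 16 in the ratio, and the part of the mitochondrial share in it was not tested.

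Single libraries led many genes at once. Ikbkb control replicate 4 had the highest value of all 16 libraries for 12 of the 35 genes and Ikbkb-deleted replicate 3 for 11. Irf1 control replicate 3 had the lowest for 14, and Irf1 control replicates 2 and 4 for 7 each. How often each library was highest or lowest over all genes was not counted, so these counts have no background. Ikbkb control replicate 4 also had the fewest counts, 16478671, and the most genes with a count, 22900. Irf1-deleted replicate 4 had the highest sum of its set, 11127 CPM, and was above the mean of the gene for 16 of the 35. The libraries richest in cDC1 markers, Ikbkb control replicate 3 and Ikbkb-deleted replicate 1, at 8104 and 8565 CPM over the 12 markers, had sums of 11722 and 12830 CPM over the proteasome genes. They were not the highest in proteasome genes: replicate 3 was the lowest of the Ikbkb controls. Without these 2 libraries, a choice made after the values were seen, 29 proteasome genes were called, with a median log2 fold change of -0.69. In that fit 29.1% of all genes were called.

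Markers of several other cell types also differed between the sets, and those of macrophages and monocytes were not called. All 10 fibroblast and endothelium markers were fitted higher in the Irf1 set, 9 of them called, with summed levels of 6221 to 11902 CPM in the Ikbkb set and 11330 to 30904 CPM in the Irf1 set. Among them Tek was at 0 in 5 libraries. All 6 neutrophil markers were fitted higher, 2 of them called, with sums of 179 to 357 and 381 to 952 CPM, and Cxcr2 was at 0 in 8 libraries. All 12 T and NK cell markers were fitted lower, 3 of them called, with sums of 199.9 to 1742 and 52.8 to 658 CPM, and Ncr1 was at 0 in 1 library. Of the 12 cDC1 markers 11 were fitted lower, 0 called, with sums of 1015 to 8565 and 773 to 3702 CPM. Of the 12 macrophage and monocyte markers 4 were fitted higher and 8 lower, 0 called, with sums of 3758 to 13801 and 5958 to 17270 CPM. In the B cell list 5 of 6 were tested, all fitted lower and 1 called (Fcrla), with sums of 9.93 to 117 and 2.91 to 26.0 CPM. In the cDC2 list 7 of 8 were tested and 1 was called lower (Irf4), with sums of 92.8 to 233 and 64.0 to 425 CPM, and Clec4a4 was at 0 in 10 libraries. In the melanoma list 3 of 8 were tested and 1 was called higher (Mitf), with sums of 2.55 to 11.6 and 6.0 to 16.9 CPM. The part of these cells in the proteasome differences was not tested, and in such bulk samples fewer cells of a type and less RNA per cell cannot be told apart.

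Transcript length also went with the difference between the sets, over all genes and within the proteasome genes. Over all genes, the median log2 fold change was -0.52 for transcripts up to 1000 nt, -0.40 for 1000 to 1500 nt, -0.24 for 1500 to 2000 nt and -0.03 for 2000 to 3000 nt. It then rose to 0.14 for 3000 to 4000 nt, 0.38 for 4000 to 6000 nt and 0.70 above 6000 nt. Proteasome transcripts are short: 26 of the 35 were up to 2000 nt. Their medians in the first 4 ranges were -0.80, -0.80, -0.55 and -0.24, each lower than that of all genes in the range. In these ranges 5 of 5, 11 of 11, 7 of 10 and 3 of 7 were called lower, where 41.1%, 36.8%, 28.5% and 26% of all genes were called in either direction.

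**Figure D3:**
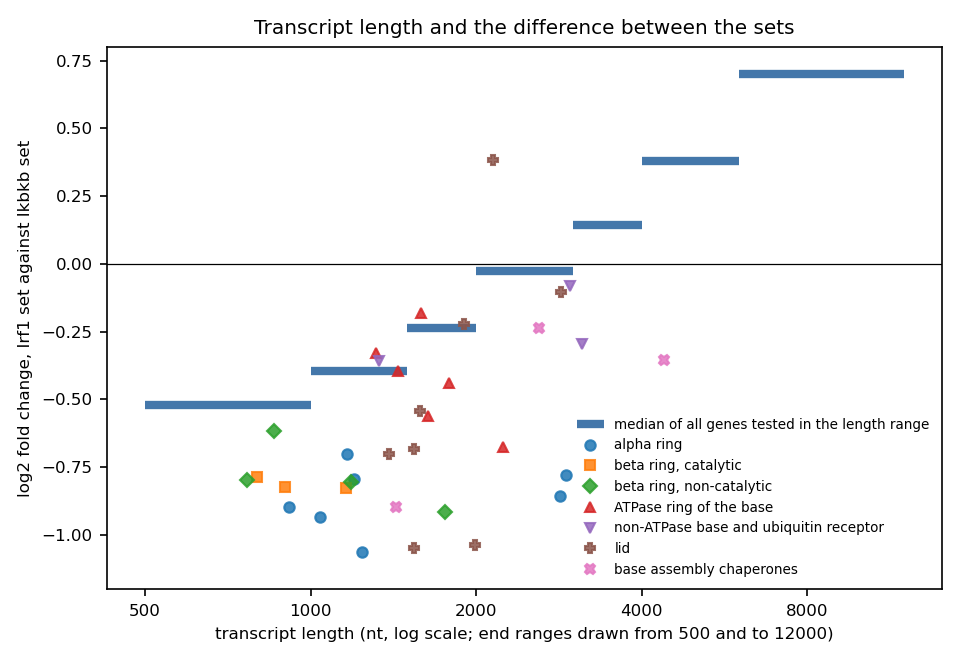
Log2 fold change between the Irf1 set and the Ikbkb set against the length of the principal transcript (log scale), for 34 proteasome genes (points, by role) and as the median of all tested genes in each of 7 length ranges (bars). The bars climb from -0.52 for the shortest transcripts to 0.70 for the longest, and most proteasome genes up to 3000 nt lie below the bar of their range.

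With an offset for transcript length and GC content in the edgeR fit, a setting chosen after the values were seen, the fall was smaller. The offset was estimated from the values of the same libraries, so a fall shared by transcripts of like length and GC content shrinks by construction. The median over the 35 genes was then -0.26, with 30 of 35 lower, and 17 were called, 16 lower and 1 higher, where 20.8% of 13524 genes were called. Of these 17 calls 16 were also made without the offset, and the added gene was Psmd5 (-0.47, SE 0.14, adjusted p = 0.0303 by edgeR). Psmd13 kept most of its fall, at -0.91 (SE 0.15, adjusted p = 0.000772 by edgeR), and Psma5 and Psmd14 were both at -0.57 (adjusted p = 0.00423 and 0.00338 by edgeR). The 3 catalytic genes were at -0.35 for Psmb5, -0.26 for Psmb6 and -0.30 for Psmb7 and were still called, with adjusted p = 0.0399, 0.0475 and 0.0150 by edgeR. Psmb2, at -0.02, and Psmd6, at -0.22, were no longer called (adjusted p = 0.915 and 0.142 by edgeR). Psma1, Psma4, Psmb3, Psmc2, Psmc4, Psmc5, Psmc6, Psmd4 and Psmd7 also lost their calls. Psmd3 was at 0.30 (adjusted p = 0.0370 by edgeR). Genes called lower under each setting tried numbered 14: Psma2, Psma3, Psma5, Psma6, Psmb1, Psmb4, Psmb5, Psmb6, Psmb7, Psmc3, Psmd8, Psmd10, Psmd13 and Psmd14.

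Neither deletion changed a proteasome gene past the threshold. For the Ikbkb deletion 0 of the 35 genes were called, as were 0 of all 16040 (0%), and 22 were fitted higher, where 47.8% of all genes were, and 13 lower. Fitted higher were 16 without Ikbkb control replicate 3 and 31 without Ikbkb control replicate 4. The median log2 fold change was 0.02 over the 35 genes and -0.02 over all genes. At an unadjusted p under 0.05 by edgeR, 0 of the 35 and 769 of all genes (4.79%) passed. DESeq2 called 38 of all genes and limma voom 0, with 0 proteasome genes in either. No proteasome gene had groups free of overlap, where 1.7% of all genes did. The farthest from 0 were the lid gene Psmd6 and the chaperone gene Psmd10. Psmd6 had 341, 324, 249.8 and 330.0 CPM in the controls and 324, 391, 449 and 335 CPM in the deleted libraries, with overlap (0.27, SE 0.17, adjusted p = 1 by edgeR; 0.15 without Ikbkb-deleted replicate 3). Psmd10, whose values are given above, was at -0.13 (SE 0.22, adjusted p = 1 by edgeR), and between -0.30 without Ikbkb control replicate 3 and 0.03 without Ikbkb control replicate 4. Over the 34 genes other than Psma8 the 95% intervals ran from -0.60 to 0.62, so larger changes of either sign lay outside each of them.

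For the Irf1 deletion the proteasome genes leaned higher without passing. Again 0 of the 35 genes and 0 of all 16040 (0%) were called, and 32 of the 35 were fitted higher, where 48.2% of all genes were. The median was 0.16 over the 35 genes and -0.02 over all genes. It was 0.05 without Irf1-deleted replicate 4, with 26 of 35 higher, and 0.23 without Irf1 control replicate 4, with 34 of 35 higher. Transcript length went with this comparison too. The medians of all genes were 0.01 up to 1000 nt, 0.09 for 1000 to 1500 nt and 0.09 for 1500 to 2000 nt. They were 0.05 for 2000 to 3000 nt and -0.23 above 6000 nt. The proteasome genes in the ranges up to 3000 nt had medians of 0.14, 0.16, 0.14 and 0.22. With the length and GC offset the median of the 35 genes was 0.11, with 30 higher. The part of length in this lean was not tested. At an unadjusted p under 0.05 by edgeR, 1 of the 35 (2.86%) and 419 of all genes (2.61%) passed. DESeq2 called 6 of all genes and limma voom 0, with 0 proteasome genes in either. That 1 gene was the lid gene Psmd8, at 299, 279, 267 and 271 CPM in the controls and 290.4, 339.7, 324 and 426 CPM in the deleted libraries. The groups met at 1 deleted library, and the log2 fold change was 0.31 (SE 0.13, adjusted p = 1 by edgeR), or 0.19 without Irf1-deleted replicate 4, at 426 CPM. The largest fitted change was that of Psmd5, which had 153, 122, 143 and 101 CPM in the controls and 124, 166, 159 and 237 CPM in the deleted libraries (0.40, SE 0.21, adjusted p = 1 by edgeR). Without Irf1-deleted replicate 4, at 237 CPM, it was 0.21. No proteasome gene had groups free of overlap, where 2.89% of all genes did. The 95% intervals over the 34 genes ran from -0.61 to 0.86.

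The catalytic genes showed the same lack of a called change. Psmb5, Psmb6 and Psmb7 were at 0.01 (SE 0.22), 0.02 (SE 0.23) and 0.07 (SE 0.15) for the Ikbkb deletion and at 0.14 (SE 0.22), -0.07 (SE 0.23) and 0.16 (SE 0.15) for the Irf1 deletion, and Psmd14 at -0.01 (SE 0.23) and 0.05 (SE 0.23). The difference between the deletions was tested as an interaction. It gave 0 calls among the 35 genes and 0 among all 16040 (0%), with 30 of 35 above 0, where 53.5% of all genes were, and a median of 0.12, against 0.04 over all genes. That count depended on single libraries and on the fit. Without Irf1-deleted replicate 4 it was 16 of 35, with a median of -0.00, and without Ikbkb control replicate 4 it was 21. With the length and GC offset it was 23. At an unadjusted p under 0.05 by edgeR, 0 of the 35 and 455 of all genes (2.84%) passed, and DESeq2 called 12 and limma voom 0 of all genes.

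**Figure D4:**
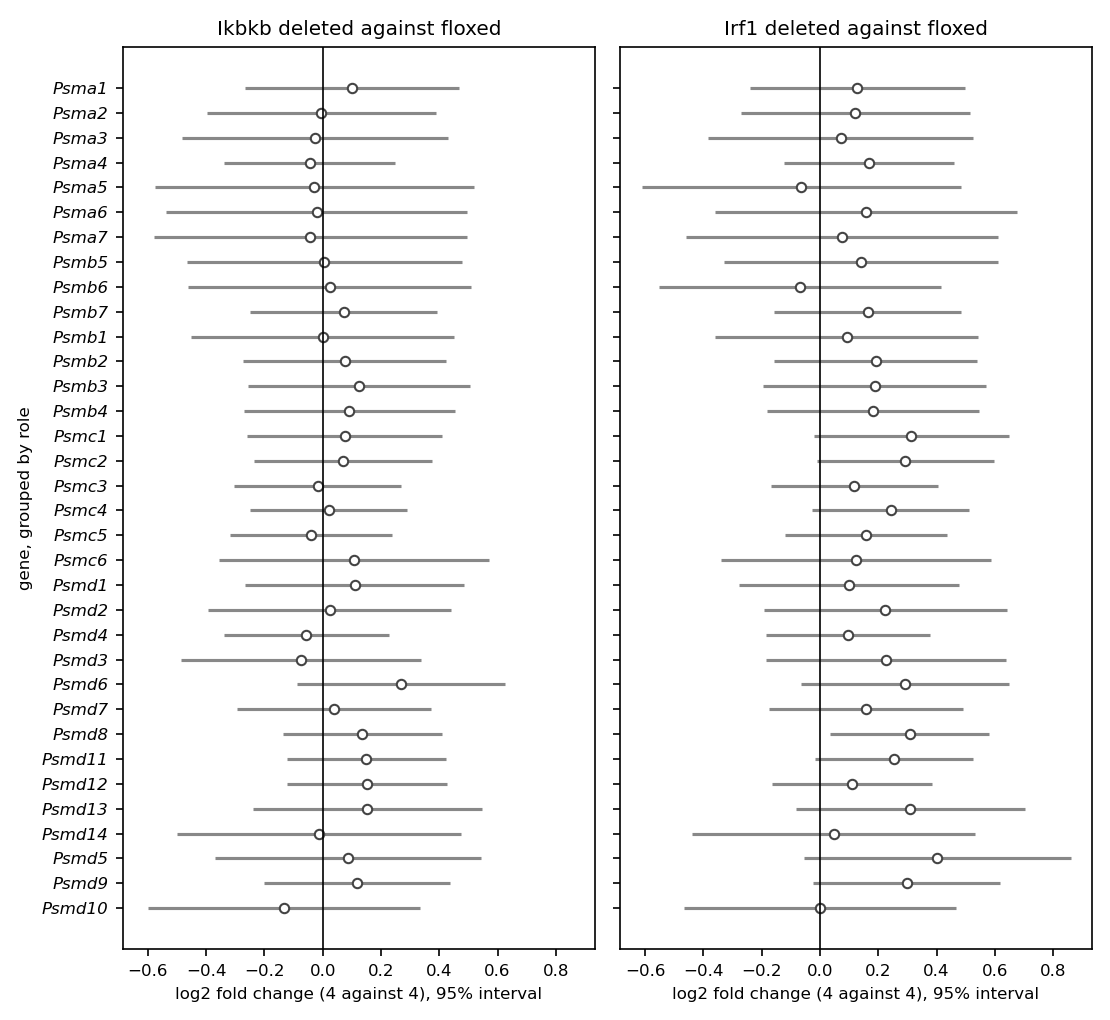
Log2 fold change of each of the 34 proteasome genes other than Psma8 for the Ikbkb deletion (left) and the Irf1 deletion (right), 4 libraries against 4, with 95% intervals from the edgeR fit. The Ikbkb points scatter about 0, between -0.13 and 0.27, the Irf1 points lie between -0.07 and 0.40, and none passed the test.

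Genes of the wider pathway were read from a list of 39, of which 38 were tested. Between the sets 21 of the 38 were called, 13 lower and 8 higher. All 3 interferon-inducible catalytic genes, which replace the constitutive ones in the immunoproteasome, were lower: Psmb8 at -1.42 (SE 0.34), Psmb9 at -1.28 (SE 0.41) and Psmb10 at -0.81 (SE 0.25), with adjusted p = 0.00673, 0.0287 and 0.0231 by edgeR. None of the 3 was called between the control groups alone or the deleted groups alone (smallest adjusted p = 0.0606 and 0.0891 by edgeR). Ikbkb control replicate 3 had the highest Psmb8 level, 1720.2 CPM, and without it the changes were -1.15, -0.94 and -0.67 (adjusted p = 0.0137, 0.0709 and 0.0477 by edgeR). The call of Psmb9 was lost without any 1 of 8 libraries and that of Psmb10 without either of 2, Ikbkb-deleted replicate 2 and Irf1-deleted replicate 3. With the length and GC offset Psmb8 was called, at -1.16 (adjusted p = 0.0168 by edgeR), and Psmb9 and Psmb10 were not. Of the activators, Psme2 was lower (-1.15, adjusted p = 0.00296 by edgeR), Psme1 was at -0.60 (adjusted p = 0.0841 by edgeR) and Psme4, for the nuclear activator PA200, was higher (0.53, adjusted p = 0.0236 by edgeR), a call lost without Irf1-deleted replicate 3 and with the offset (0.12). Of 6 core assembly genes 4 were lower, namely Pomp, Psmg1, Psmg3 and Psmg4, from -0.62 to -1.07. With the offset Psmg3 and Psmg4 of these were called. Psmg2 and Akirin2, not called without it, were then called higher, at 0.35 and 0.56 (adjusted p = 0.0374 and 0.00354 by edgeR). Of 7 genes of the NFE2L1 pathway 3 were higher and none lower. Nfe2l1, for the factor itself, was at 89.2 ± 29.4 CPM in the Ikbkb set and 195 ± 47.8 CPM in the Irf1 set (SD, n = 8 each; log2 fold change 1.13, SE 0.21, adjusted p = 0.00129 by edgeR). Its lowest value in the Irf1 set was 137 CPM and its highest in the Ikbkb set 138 CPM. Ddi2, the protease that activates the factor, and Sel1l, a part of the machinery that extracts proteins from the endoplasmic reticulum, were higher by 0.91 and 0.73. The 3 transcripts are long, at 4654 nt for Nfe2l1, 9553 nt for Ddi2 and 6300 nt for Sel1l, where the medians of all genes were 0.38 for 4000 to 6000 nt and 0.70 above 6000 nt. With the offset Nfe2l1 was at 0.60 and called (adjusted p = 0.0122 by edgeR), and Ddi2 at 0.02 and Sel1l at 0.19 were not. Over the whole list, 8 of the 21 calls were also made with the offset, where 6 of the 38 genes were called lower and 6 higher. Of the 38 genes 0 were called for either deletion.

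Ratios of each interferon-inducible catalytic gene to the constitutive gene it replaces overlapped between all 4 groups. Psmb8 over Psmb5 in CPM was 5.16 ± 3.55 in the Ikbkb controls, 4.61 ± 2.89 in the Ikbkb-deleted libraries, 3.43 ± 1.69 in the Irf1 controls and 2.94 ± 2.09 in the Irf1-deleted libraries (SD, n = 4 each). It ran from 1.47 in Irf1-deleted replicate 2 to 10.5 in Ikbkb control replicate 3, 1 of the 2 libraries richest in cDC1 markers; the other, Ikbkb-deleted replicate 1, came next at 8.14. Psmb9 over Psmb6 ran from 0.180 to 1.66 and Psmb10 over Psmb7 from 0.728 to 2.99, with the highest of each again in Ikbkb control replicate 3. Of 9 comparisons (3 ratios by the Ikbkb deletion, the Irf1 deletion and the sets) none passed a two-sided exact permutation test of the mean log2 ratio, with unadjusted p from 0.181 to 0.971 and Benjamini-Hochberg adjusted p = 0.971 for each. The smallest of these was for Psmb8 over Psmb5 between the sets, with mean log2 ratios of 2.06 ± 0.869 and 1.48 ± 0.781 (SD, n = 8 each).

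**Figure D5:**
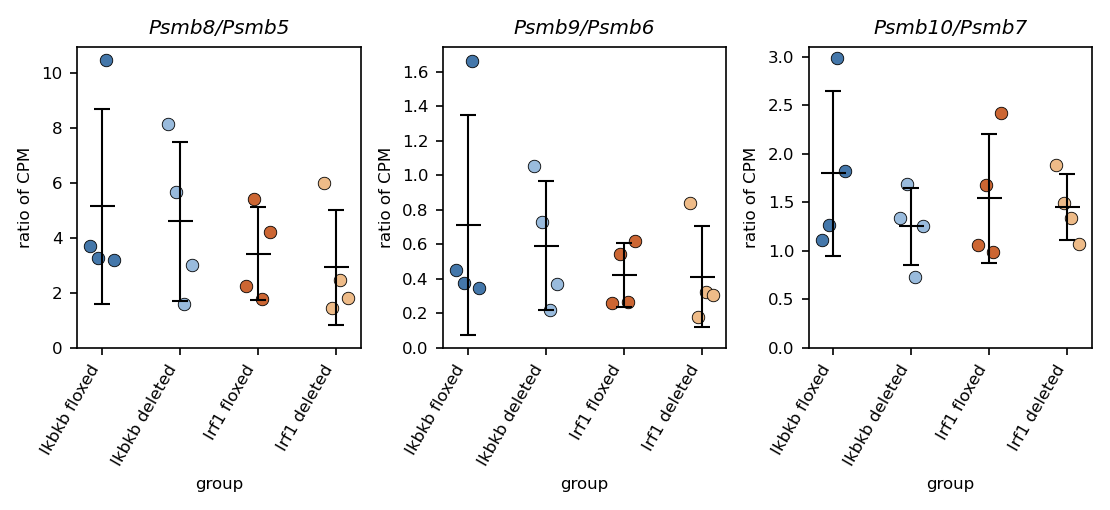
Ratio of CPM of each interferon-inducible catalytic gene to the constitutive gene it replaces, 1 point per library and 4 libraries per group, with the mean and SD as bars; each axis starts at 0. The highest point of each panel, at 10.5, 1.66 and 2.99, is Ikbkb control replicate 3, and the groups overlap in each panel.

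Some of the counts could be affected by exon bases shared with neighbours. In the GENCODE M21 annotation 9 of the 35 genes share exon bases with another gene, over 10% of their exon length in Psmd9 (25.5%), Psmb5 (12.1%), Psmb7 (11.8%) and Psmd13 (10.1%). The strand setting of the counting is not given in the sources used here, so reads of antisense neighbours cannot be told apart from theirs.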

How the data were processed

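Polyadenylated RNA of 16 libraries was measured by SMART-Seq v4, from 1000 pg of RNA with 12 cycles of cDNA PCR, and Nextera XT with 12 more cycles, per the labels' protocols. The authors deposited raw counts per Ensembl gene, whole numbers without normalization. Build mm10 and the tools STAR 2.5.3a, HTSeq 0.6.1p1, cutadapt 1.10 and bcl2fastq 2.17.1.14 are named, per the submitters' processing notes. Annotation release and strand setting are not given in the sources used here. Reads carry no molecular identifiers, so PCR copies are counted.

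Ensembl IDs were matched to symbols and exons through GENCODE M21 (32684 of 32697). In R 4.3.3 with edgeR 4.0.16, genes passing filterByExpr (minimum count 10) were fitted by the quasi-likelihood method with 4 group means, TMM scaling and 12 residual degrees of freedom, and a gene was called when its p, adjusted over 16040 genes by Benjamini-Hochberg, was under 0.05. The SE of a log2 fold change was derived as its absolute value divided by the square root of the test's F statistic. Each 95% interval was built from that SE and a t quantile. Levels are TMM-scaled CPM. Per-kilobase levels divide CPM by the union of exons. Genotype labels set the groups, and replicate numbers follow record order. Alternatives were other scalings and filters, DESeq2 1.42.0, limma 3.58.1 (voom with sample quality weights), single sets or groups, and leaving out each library. The length and GC offset, the removal of 2 libraries and the transcript length were added after seeing the data. The scripts were tested on simulated data.

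Genes given in each library were the catalytic genes, Psmd14, Psma8, the 3 largest called changes in each direction and the extremes of each comparison; Psmd8, Psmd2 and the others named were chosen after their values were seen. The gene set, the role, pathway and marker lists and the naming rule were chosen with earlier results of these data known. Of the 39 pathway genes, Paaf1 was not matched.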

Additional observations from a re-analysis of the deposited data

Results flagged for a closer look

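Groups of 4 libraries were screened with Dixon's ratio, in which the gap of the highest or lowest library to its neighbour is divided by the range of the group. Of 180 groups tested, 14 held a library above the 95% critical value of that ratio, where chance gives about 5%.

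Among the constitutive genes, Ikbkb-deleted replicate 3 stood above its group for Psmb5 at 262 CPM, where the other 3 libraries had 151 to 163 CPM, and for Psmd14 at 890.2 CPM, where the others had 498 to 549 CPM. Irf1 control replicate 4 stood above its group for Psma5, at 139 CPM against 76.1 to 85.6 CPM. The same 2 libraries stood above their groups for Psma4, at 285 CPM in Ikbkb-deleted replicate 3, and for Psmb1, at 562 CPM in Irf1 control replicate 4. For Psmc6, 2 libraries stood below their groups, Ikbkb control replicate 3 at 164 CPM and Irf1 control replicate 2 at 137 CPM. Ikbkb control replicate 4 stood above its group for Psma8, at 1.62 CPM, which rests on 26 counts.

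Among the interferon-related genes, Ikbkb control replicate 3 stood above the other controls for Psmb8 at 1720.2 CPM, for Psmb9 at 1072 CPM and for Psme1 at 843 CPM. The same library stood apart in the ratio of Psmb8 to Psmb5, at 10.5, and of Psmb9 to Psmb6, at 1.66. Irf1-deleted replicate 1 stood above its group for Psme1, at 393 CPM.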

How the results depend on the processing

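Counts of called proteasome genes stayed within 1.5 times of the reported ones under each alternative but one. With the offset for transcript length and GC content, the calls between the sets went from 27 to 17. The median log2 fold change went from -0.68 to -0.26. Because the offset was fitted to the same values, falls shared by transcripts of like length and GC content shrink by construction. Leaving out each library in turn gave 26 to 28 calls between the sets and medians of -0.73 to -0.65. Over all genes these fits called 3506 to 4809. For both deletions and their difference 0 proteasome genes were called under each alternative, with leave-one-out medians of -0.01 to 0.12, 0.05 to 0.23 and -0.00 to 0.20. Of the called proteasome genes Psmc5 turned sign with the offset, from -0.33 to 0.10, and was then not called. Over all genes, calls between the sets were 4488, against 2018 in the control groups alone, 1376 in the deleted groups alone and 2811 with the offset. Voom with sample quality weights moved the median of all genes between the sets to 0.11 and called 31 proteasome genes, where 39.4% of all genes were called. No paired analysis was possible because the titles number the libraries 1 to 16 across groups and no number is shared between groups. Psma8 is limited by its depth, and no change in it was detectable. With 4 libraries per group, the intervals of the deletions span changes of either sign, except that of Psmd8 for the Irf1 deletion.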
